A study of Mus musculus with 248 samples.

Results

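Replication-dependent histone genes code for the histones that package newly copied DNA, and their transcripts were followed here in the blood of mice before and during the development of leukemia. The members were the genes whose Ensembl ID maps to a symbol of the Hist1h, Hist2h, Hist3h or Hist4h series or of their renamed clustered counterparts. The rule found 69 such genes, with 1 pseudogene left out. Of these, 48 were in the training table of 18508 genes (5 H1, 13 H2A, 11 H2B, 7 H3 and 12 H4 genes). The validation table of 13607 genes held 42 (5 H1, 11 H2A, 10 H2B, 4 H3 and 12 H4), all of them also in the training table. The 6 members in the training table only were Hist1h2ad, Hist1h2ah, Hist2h3b, Hist2h3c1, Hist2h3c2 and Hist3h2ba, and 21 members were in neither table. A gene had to reach a minimum level in a few libraries to be kept in a table, so members that were high in late CM libraries alone could enter through those libraries.

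A nucleosome is built from H3-H4 tetramers and H2A-H2B dimers, and H1 binds the DNA between nucleosomes. Cells make most of these histones in S phase, from gene clusters that carry many near-identical copies and whose transcription is switched on by NPAT. Their mRNAs end in a short stem-loop bound by SLBP in place of a poly(A) tail, although some members can also make polyadenylated mRNA in cells that have left the cycle. How a library is prepared therefore bears on how these RNAs are captured. Most white cells in the blood are not dividing, whereas leukemic blasts and early erythroid cells can be.

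The CM arm was C57BL/6 mice of the genotype Cbfb+/56M Mx1-Cre, in which Cre under the interferon-inducible Mx1 promoter recombines the Cbfb allele so that it codes for the Cbfb-MYH11 fusion of inv(16) acute myeloid leukemia. Mx1-Cre acts in many cell types, not in blood cells alone. The Ctrl arm was littermates with the same treatment that were wild type or carried only Cbfb+/56M or only Mx1-Cre. The inducer, poly(I:C), was given to both arms at an age of 4 to 8 weeks (7 doses of 14 mg/kg), so no group is free of it. Total RNA came from blood taken before induction (T0) and monthly after it. In the training cohort 55 libraries came from 7 CM mice and 77 from 7 Ctrl mice. The validation cohort had 13 CM mice with 68 libraries, including a leukemia library (L) from 6 of them, and 8 Ctrl mice with 48. Training CM mice were followed to a last library between T4 and T10, which is used here as their late sample; the labels name no leukemia library in that cohort.

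Training libraries were made with ribosomal RNA removal and no selection of poly(A) RNA (KapaHyper with RiboErase), and validation libraries with a protocol labelled TrueSeq. In the validation cohort 38 libraries (T0, T1 and L) were not strand-specific and 78 were. Sums of the members differed with it: 423 to 3362 CPM with a median of 1365 in the unstranded libraries and 423 to 5477 CPM with a median of 835 in the stranded ones, and month cannot be told apart from preparation there. CPM is reads per 1000000 reads of the table. The small nuclear RNA 7SK, which has no poly(A) tail, reached 17490 CPM at the median of the unstranded and 23071 CPM at the median of the stranded validation libraries, so RNA without a tail was captured in both. Depth was 16 to 36.3 M reads per training library and 8.68 to 34.4 M per validation library (M for 1000000). The values are log2 CPM with a prior that puts a gene with no reads at about -6.52 in the training table. The row MHY11, for the MYH11 part of the fusion, had 0 to 19 reads in validation libraries of mouse 2700 after T0, although the mouse is labelled CM, against at least 68 in the other 12 validation CM mice. Ctrl libraries after T0 had 0 to 258 reads there and the training table at most 19 in any library, so the row does not check the arm in those. Furthermore, the T0 library of CM mouse 2731 did not match its label in sex-linked genes. The 2 cohorts were normalised separately, so levels are compared within a cohort.

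The stem-loops of the members that carry the results are shown first. They mark where a histone mRNA can end without a tail, but several annotated transcripts go on past them to a poly(A) signal. The 16-base stem-loop was found in 36 of the 47 members with an annotated transcript (76.6%; GENCODE vM1), against 9 of 14408 other training genes (0.0625%). In 6 members the annotated tail was shorter than 30 bases and held no stem-loop, which says nothing about the gene itself. The most frequent form, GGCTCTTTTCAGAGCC, was in 22 members, and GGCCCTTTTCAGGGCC was in 6. Each is given 5′ to 3′ in DNA letters with 5 flanking bases, and capitals mark the stem-loop.
Hist1h1c: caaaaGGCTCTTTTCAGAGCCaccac
Hist3h2a: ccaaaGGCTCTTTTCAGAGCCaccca
Hist1h2ah: ccaaaGGCTCTTTTCAGAGCCacaca
Hist1h3b: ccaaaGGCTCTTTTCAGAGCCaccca
Hist1h3c: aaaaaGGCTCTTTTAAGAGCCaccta
Hist1h4b: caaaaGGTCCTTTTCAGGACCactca
Hist1h4c: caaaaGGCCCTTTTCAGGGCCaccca
Hist1h4i: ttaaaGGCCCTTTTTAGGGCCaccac
The annotated Hist1h2ah transcript ended 14 bases after the stem-loop and that of Hist1h3b 51 bases after it. The annotated Hist1h1c, Hist3h2a and Hist1h4i transcripts went on for 839, 1487 and 150 bases and held a poly(A) signal (AATAAA or ATTAAA) in their last 40 bases. Such a signal was found in 14 members. Hist1h2bc and Hist2h2be had no stem-loop in their annotated transcripts, which ran 322 and 2192 bases past the coding part and had the signal.

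The 250 bases before the start of 4 members show the promoters of 3 genes with large changes in CM mice and of Hist1h1c for contrast (RefSeq, GRCm38.p6, written on the gene's strand). Capitals mark the motifs searched on both strands: the TATA box as TATAAA, the box CCAAT, the octamer ATTTGCAT and the H1 box AAACACA. None of the 4 contains another.
Hist1h1b, chr13:21780626-21780875, minus strand: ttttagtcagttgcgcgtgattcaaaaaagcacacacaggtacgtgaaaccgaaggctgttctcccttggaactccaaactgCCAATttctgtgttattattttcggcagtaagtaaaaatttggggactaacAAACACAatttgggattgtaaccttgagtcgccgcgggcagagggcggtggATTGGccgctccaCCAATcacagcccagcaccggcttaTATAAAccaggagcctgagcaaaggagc
Hist1h1c, chr13:23738557-23738806, plus strand: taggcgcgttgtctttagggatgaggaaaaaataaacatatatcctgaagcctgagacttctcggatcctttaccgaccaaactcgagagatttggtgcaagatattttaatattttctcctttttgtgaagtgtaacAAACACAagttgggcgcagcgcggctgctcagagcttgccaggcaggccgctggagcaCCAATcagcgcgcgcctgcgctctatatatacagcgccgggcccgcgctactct
Hist1h2ah, chr13:22035644-22035893, minus strand: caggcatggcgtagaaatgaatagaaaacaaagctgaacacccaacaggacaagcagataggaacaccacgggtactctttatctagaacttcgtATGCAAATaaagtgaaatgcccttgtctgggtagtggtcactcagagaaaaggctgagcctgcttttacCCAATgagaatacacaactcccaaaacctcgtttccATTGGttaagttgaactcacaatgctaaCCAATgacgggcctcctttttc
Hist1h3b, chr13:23752095-23752344, plus strand: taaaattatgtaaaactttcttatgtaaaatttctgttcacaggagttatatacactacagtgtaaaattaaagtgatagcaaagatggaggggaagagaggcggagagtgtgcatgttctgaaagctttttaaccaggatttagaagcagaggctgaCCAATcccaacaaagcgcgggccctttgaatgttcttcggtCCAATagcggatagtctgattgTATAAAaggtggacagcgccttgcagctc
TATAAA was in 52.3% of the promoters of the 44 training members with an entry, against 14.3% of 27025 promoters of all genes. CCAAT was in 77.3% of the members and 37.5% of all genes, and in every H1, H2A and H2B promoter. The octamer was in 6 of 13 H2A and 4 of 9 H2B promoters (22.7% of the members, 1.81% of all genes). The H1 box was in 4 of 5 H1 promoters and 1 of 13 H2A promoters, which makes 11.4% of the members and 7.2% of all genes. These matches describe letters only.

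The first question was how the histone transcripts of CM mice changed from T0 to the last library. In the training cohort 38 of 48 members rose and 2 fell (limma, mouse as block, adjusted p under 0.05), where 10.1% of all genes rose and 35.9% fell. The median log2 fold change was 2.24 over the members and -0.57 over all genes. Every H1 gene rose, as did 11 of 13 H2A, 8 of 11 H2B, 4 of 7 H3 and 10 of 12 H4 genes, with medians of 2.29, 2.94, 2.11, 2.13 and 1.87 for these types. When libraries were scaled by median ratios, the median of all genes moved to -0.01, 41 members rose and none fell. In blood, more dividing cells and more histone RNA per dividing cell cannot be told apart.

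**Figure D1:**
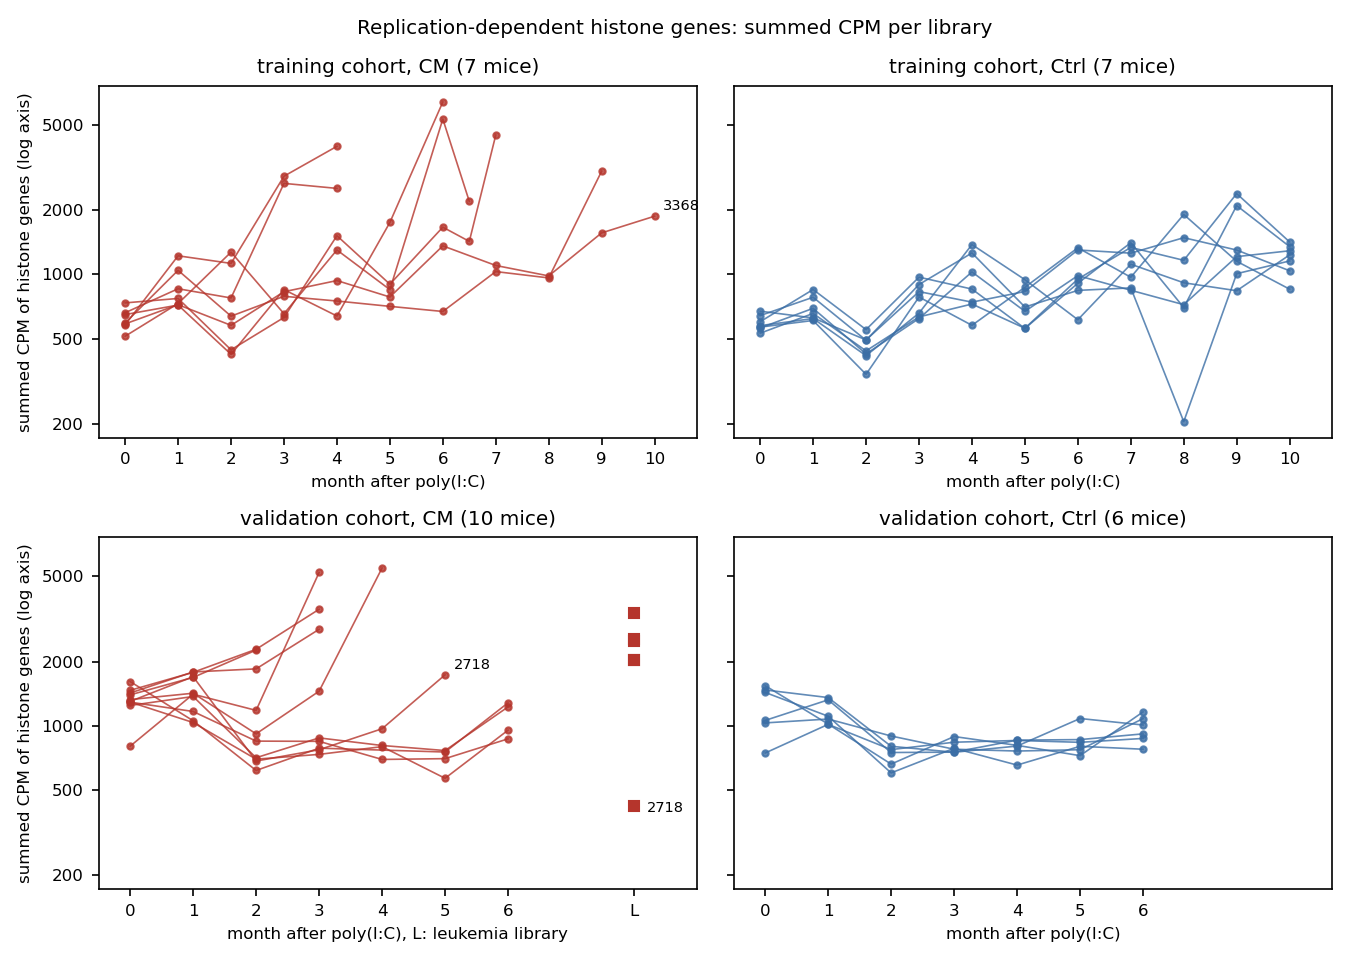
Summed CPM of the members in each library by month (log axis), CM left and Ctrl right, training above validation; lines join libraries of 1 mouse and squares are L libraries. Training CM last libraries reach 1872 to 6402 CPM, and the L library of mouse 2718 is the lowest L library at 423 CPM.

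The 5 H1 linker genes rose by different amounts. Hist1h1b (ENSMUSG00000058773, GRCm38 chr13:21779832-21780625) had 0.97, 7.60 and 8.90 log2 CPM at the lowest, median and highest of the 7 last libraries, against 1.58, 2.35 and 2.78 at T0. It was higher in 6 of 7 mice, by 4.71 ± 0.74 (log2 fold change ± SE, adjusted p = 0.000477). Hist1h1c (ENSMUSG00000036181, chr13:23738807-23739531) had 8.77, 9.75 and 10.28 in last libraries, against 7.61, 7.77 and 8.04 at T0. Its groups did not overlap and the rise was 1.83 ± 0.23 (adjusted p = 0.000151). Hist1h1d rose by 3.12 ± 0.56, Hist1h1a by 2.29 ± 0.67 and Hist1h1e by 1.54 ± 0.45 (adjusted p = 0.00108, 0.015 and 0.0154). In Hist1h1e the last libraries ran from 3.30 to 8.27 log2 CPM with a median of 7.16, against 4.85 to 5.59 with a median of 5.32 at T0, so that 1 library lay below every T0 library.

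Among the H2A genes the largest log2 fold change was that of Hist1h2ah (ENSMUSG00000069302, chr13:22035122-22035643). Its last libraries had -3.27, 3.24 and 4.51 log2 CPM at the lowest, median and highest, against -6.52, -3.22 and -2.24 at T0. These stand for 2374 reads over the 7 last libraries and 14 over the 7 T0 libraries, so the fitted log2 fold change of 6.35 ± 0.92 (adjusted p = 0.000305) depends on the prior. No T0 library of these mice reached the 0.5 CPM that the table required in 2 samples. The gene was kept through other libraries, so its rise may in part reflect that filter. Hist1h2af rose by 5.33 ± 0.69 in 7 of 7 mice (adjusted p = 0.000166) and Hist1h2ag by 4.37 ± 0.75 (adjusted p = 0.00077). Only 33%, 20.3% and 18.5% of the 50-base stretches of these 3 genes occurred nowhere else among transcripts, so reads may be shared with other copies. Hist2h2ac rose by 1.47 ± 0.48 (adjusted p = 0.0252). Hist3h2a, which overlaps Trim17, had 0.85, 1.79 and 4.64 log2 CPM in last libraries, against 2.60, 2.77 and 3.42 at T0, and was higher in 1 of 7 mice (-0.97 ± 0.47, adjusted p = 0.118). Without mouse 3368, Hist3h2a fell by 1.46 on the log2 scale (adjusted p = 0.00241).

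The H2B genes split in direction. Hist1h2bk rose by 5.22 ± 0.81 (adjusted p = 0.000434), with -1.58, 4.80 and 6.17 log2 CPM at the lowest, median and highest of the last libraries, against -2.29, -0.70 and -0.43 at T0. Hist1h2be rose by 1.43 ± 0.26 in 7 of 7 mice (adjusted p = 0.00125) and Hist1h2bc by 1.28 ± 0.39 in 6 of 7 (adjusted p = 0.019). Hist2h2be fell in 7 of 7 mice: 1.62, 2.72 and 2.91 log2 CPM in last libraries, against 3.42, 3.59 and 3.85 at T0, with no overlap (-1.13 ± 0.29, adjusted p = 0.00732). With median-ratio scaling its change was -0.58 and its adjusted p 0.0564.

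Among the 7 H3 genes Hist1h3c and Hist1h3b had the largest increases. Hist1h3c had -0.50, 4.89 and 6.59 log2 CPM in last libraries, against -2.04, -1.02 and -0.64 at T0 (5.74 ± 0.75, adjusted p = 0.000173). Hist1h3b (ENSMUSG00000069267, chr13:23752345-23752840) had -0.09, 4.91 and 6.49, against -1.49, -1.18 and -0.31 (5.61 ± 0.62, adjusted p = 8.43e-05). Both were higher in 7 of 7 mice and their groups did not overlap. Hist2h3b rose by 2.13 ± 0.57 (adjusted p = 0.00993), whereas Hist1h3e, with 1.65 ± 0.64, did not pass (adjusted p = 0.0531). It passed with median-ratio scaling (2.20, adjusted p = 0.00864) and without mouse 3368 (2.41, adjusted p = 0.000245). Hist2h3c1 fell in 7 of 7 mice (-1.61 ± 0.47, adjusted p = 0.0159), with -2.96, -1.26 and -0.62 log2 CPM in last libraries, against -0.37, 0.12 and 0.17 at T0. Its fall did not pass with median-ratio scaling (-1.05, adjusted p = 0.109).

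The H4 genes, which code for 1 and the same protein, rose in 10 of 12 cases. Hist1h4d had 3.12, 7.72 and 9.14 log2 CPM in last libraries, against 5.06, 5.57 and 5.89 at T0 (1.84 ± 0.58, adjusted p = 0.0225). Hist1h4c had 3.55, 7.50 and 8.46, against 4.78, 5.53 and 5.94 (1.50 ± 0.50, adjusted p = 0.0269). In both genes 1 last library lay below all T0 libraries, and the call was lost when single mice were left out (lowest change 1.51 for Hist1h4d, adjusted p = 0.0747, and 1.22 for Hist1h4c, adjusted p = 0.0883, both without mouse 3341). Hist1h4f rose by 4.21 ± 0.83 and Hist1h4i by 1.06 ± 0.38 (adjusted p = 0.0394 for Hist1h4i). Hist1h4m and Hist1h4n did not pass.

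The library below the rest was the same one in these genes: T10 of mouse 3368. Its sum was 1872 CPM, against 587 CPM at its T0, yet Hist1h1c and Hist1h2bc made up 88.5% of that sum, against 45% at T0. Without these genes its sum was 215 CPM, against 323 CPM at T0, and 13 of 48 members were higher. Globin transcripts took 21.7% of its reads, Mki67 was at 5.73 and Kit at 2.34 log2 CPM. In the other 6 mice 41 to 43 of 48 members were higher, the share of Hist1h1c and Hist1h2bc was 18.6% to 32%, and Kit was at 6.61 to 9.45 log2 CPM. Mki67 was at 8.90 to 10.03 log2 CPM in these mice and globin took 0.213% to 10.9% of reads. Globin was above its T0 share in mouse 3357 (10.9%, against 1.12%) and mouse 3370 (4.66%, against 0.915%) as well. The last sums of the other 6 mice were 3.81-fold to 9.87-fold their T0 sums, the most in mouse 3341 (6402 CPM at T6, 649 CPM at T0). Without mouse 3368, 41 members rose and 4 fell, with a median log2 fold change of 2.96.

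**Figure D2:**
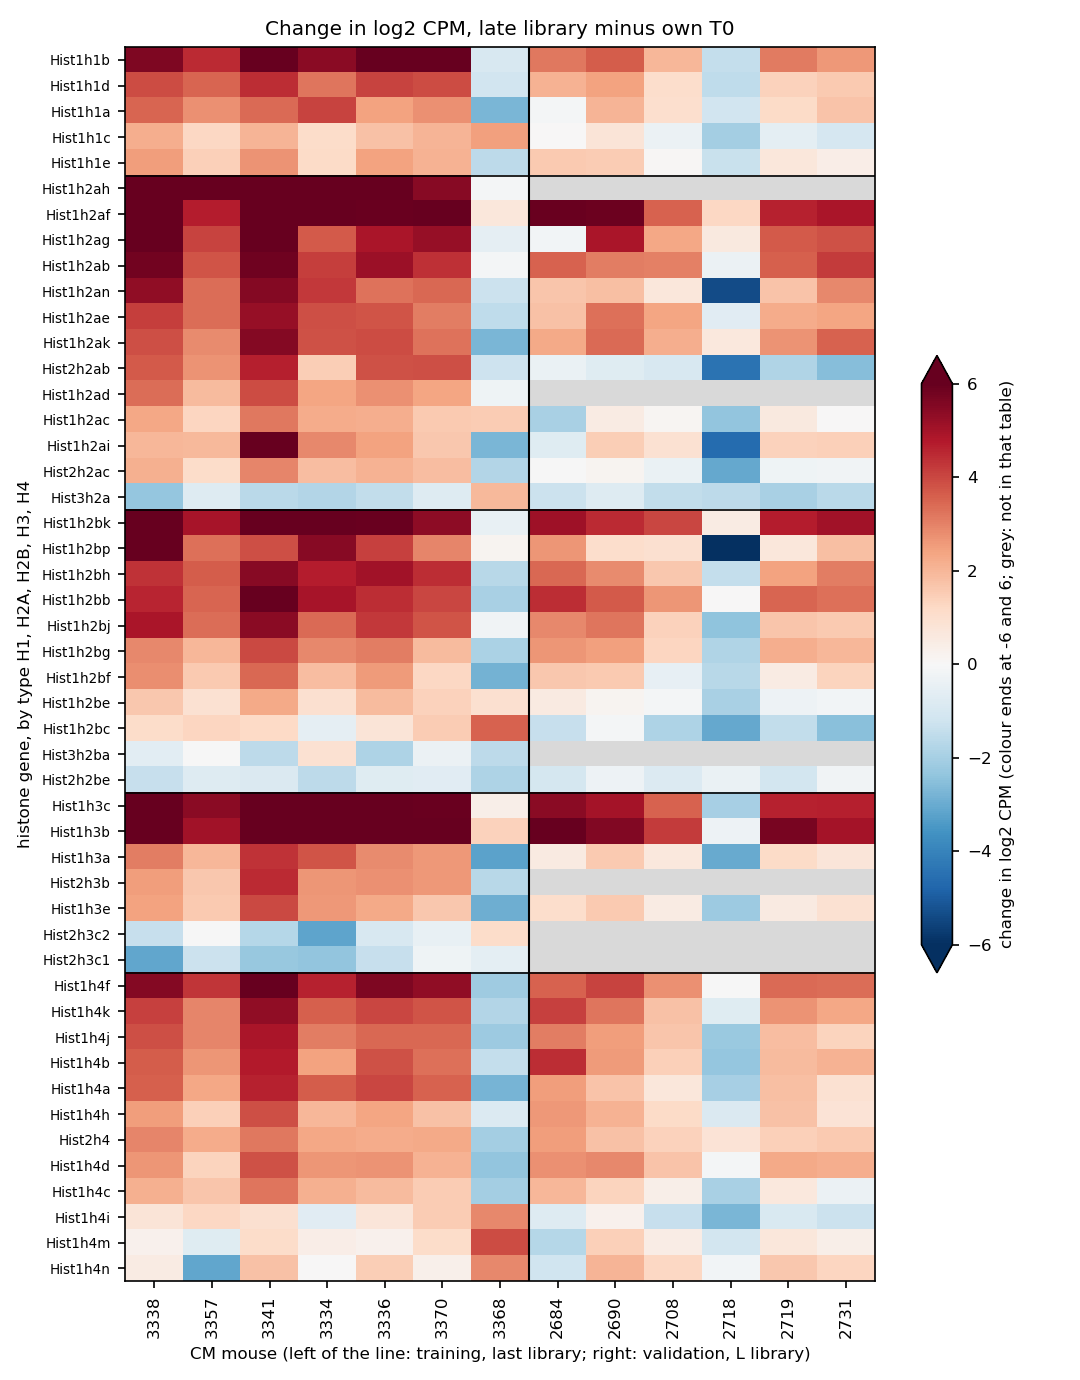
Change in log2 CPM of each member (down the page, by type) from the mouse's own T0 to its last library (7 training CM mice) or L library (6 validation CM mice); colours end at -6 and 6 and grey marks members not in the validation table. Mice 3368 and 2718 stand apart, with 13 of 48 and 6 of 42 members higher, against at least 41 of 48 and 30 of 42 in the other mice.

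In the validation cohort the L library was set against the T0 library of the same 6 CM mice, as labelled. One of these pairs is that of mouse 2731, whose T0 library did not match its label in sex-linked genes, so its pairing is uncertain. L and T0 libraries came from different sequencing runs, so stage and run cannot be told apart in this comparison. Here 18 of 42 members rose and 5 fell, where 31.4% of all genes rose and 33% fell. The median log2 fold change was 1.05 over the members and -0.04 over all genes, and 32 members had a positive value. By type, 2 of 5 H1, 5 of 11 H2A, 4 of 10 H2B, 2 of 4 H3 and 5 of 12 H4 genes rose. Each of the 5 decreases was in the H2A (2), H2B (2) or H4 (1) genes.

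Hist1h3b rose by 4.47 ± 0.81 (adjusted p = 0.00154), with -0.23, 4.79 and 6.21 log2 CPM at the lowest, median and highest of the L libraries, against -0.68, -0.38 and 0.07 at T0. None of these T0 libraries reached the 5 CPM that the validation table required in 2 samples, so Hist1h3b was kept through other libraries. Hist1h2af rose by 4.36 ± 0.65 (adjusted p = 0.000524) and Hist1h2bk by 3.98 ± 0.59 (adjusted p = 0.000507), each in 6 of 6 mice. Their means over all validation libraries, -1.49 and 0.86 log2 CPM, also lay below 5 CPM, so their rise may in part reflect that filter. Hist1h3c rose by 3.54 ± 0.90, Hist1h2bb by 2.93 ± 0.50 and Hist1h1b by 2.18 ± 0.59 (adjusted p = 0.00854, 0.00106 and 0.0114). Among the H4 genes Hist2h4 rose by 1.57 ± 0.20 in 6 of 6 mice (adjusted p = 0.000255) and Hist1h4d by 1.94 ± 0.36 (adjusted p = 0.00165). Hist1h1c was at 6.93, 8.60 and 8.98 in L libraries, against 8.09, 8.97 and 9.15 at T0, and its -0.53 ± 0.31 did not pass (adjusted p = 0.166). Hist1h1e (0.48), Hist1h2be (-0.30), Hist2h2ac (-0.64), Hist1h3e (0.40) and Hist1h4c (0.34) did not pass either (adjusted p = 0.253, 0.376, 0.188, 0.427 and 0.529). These values rest in part on mouse 2718: without it Hist1h1e had 0.84 (adjusted p = 0.0208) and Hist1h3e 0.92 (adjusted p = 0.00345), both then called. Hist1h4c then had 0.79, Hist1h1c -0.23, Hist2h2ac -0.15 and Hist1h2be 0.02, none of them called (adjusted p = 0.0666, 0.438, 0.339 and 0.911).

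The decreases in L libraries were led by Hist2h2ab. It had -1.95, 1.47 and 2.30 log2 CPM in L libraries, against 2.32, 2.68 and 3.13 at T0 (-1.82 ± 0.53, adjusted p = 0.0153). Hist1h2bc had 4.37, 5.50 and 5.86, against 5.68, 7.24 and 7.91 (-1.73 ± 0.33, adjusted p = 0.00214), and Hist3h2a 2.34, 2.78 and 3.27, against 3.52, 4.32 and 4.75 (-1.45 ± 0.19, adjusted p = 0.000279). Both were lower in 6 of 6 mice. Hist1h4i fell by 1.15 on the log2 scale (SE 0.34, adjusted p = 0.0181) and Hist2h2be by 0.65 (SE 0.19, adjusted p = 0.0175).

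Mouse 2718 stood apart here as mouse 3368 did in training. Its L library had a sum of 423 CPM, against 1302 CPM at T0, with 6 of 42 members higher, and Hist1h3b was at -0.23 there, against 0.06 at T0. Kit, however, was at 11.44 log2 CPM, the highest of the 6 L libraries, and Mki67 at 6.56; globin took 0.0386% of the reads. The other 5 mice had L sums of 2025 to 3362 CPM and 1.38-fold to 3.18-fold their T0 sums, with 30 to 38 of 42 members higher. Without mouse 2718, 28 members rose and 5 fell, with a median log2 fold change of 1.69.

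Whether a member's change differed between the cohorts was tested for 9 members by an exact 2-sided permutation test over mice (1716 splits, Benjamini-Hochberg over 9), a test added after the values were seen. Hist1h1c changed by 1.82 ± 0.50 (SD, n = 7) in training CM mice and by -0.54 ± 0.95 (n = 6) in validation CM mice, a difference of 2.36 (exact permutation p = 0.00117, adjusted p = 0.00524). Hist1h2be differed by 1.73 (exact permutation, adjusted p = 0.00524), Hist1h2bc by 3.01 (exact permutation, adjusted p = 0.00699) and Hist2h2ac by 2.11 (exact permutation, adjusted p = 0.042). For the other 5, adjusted p was at least 0.306 (exact permutation), with Hist1h4d at -0.10. Single mice decided several of these. Without mouse 2718 the difference of Hist2h2ac was 1.62 and no longer passed (exact permutation, adjusted p = 0.0909), and Hist1h2be changed by 1.43 in training and 0.02 in validation (exact permutation, adjusted p = 0.0114). Without mouse 3368 Hist1h1e (1.58), Hist1h3e (2.01) and Hist1h4c (1.76) differed as well (exact permutation, adjusted p = 0.0167, 0.00779 and 0.0162). Preparation, time of sampling and follow-up differ between the cohorts and cannot be told apart in these differences.

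The members rose beside genes of the cell cycle. Among 20 S phase genes 15 rose in training last libraries and none fell (median 1.97; Rrm2, a subunit of ribonucleotide reductase, by 4.04 ± 0.56, adjusted p = 0.000234). All 20 mitosis genes rose (median 3.87; Ccna2, cyclin A2, by 5.21, adjusted p = 6.43e-06). In L libraries 18 of 20 S phase and 19 of 20 mitosis genes rose, with medians of 1.79 and 3.31. The proliferation marker Mki67 rose by 4.87 ± 0.42 in training and by 3.47 in L libraries. Pcna, the sliding clamp of DNA replication, rose by 0.90 ± 0.14 in L libraries, and its 0.84 did not pass in training (adjusted p = 0.145). Without mouse 3368 Pcna rose in training by 1.36 ± 0.18 (adjusted p = 0.000387).

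The machinery around the histones was counted in the same way. Among 14 histone mRNA processing genes none rose in training last libraries and Zfp473 (-1.90) fell; Slbp had 0.06 and Npat -0.02. Without mouse 3368, 2 rose, and Slbp rose by 0.54 ± 0.16 (adjusted p = 0.0194) while Npat had 0.37 (adjusted p = 0.175). In L libraries 9 of 13 rose, Npat by 1.18 ± 0.14 (adjusted p = 0.000143), the exonuclease Eri1 by 1.05 and Slbp by 0.53 ± 0.11 (adjusted p = 0.00313). Of 12 chaperones, 3 rose in training: the chromatin assembly subunits Chaf1a (3.29) and Chaf1b (2.86), and Asf1b (2.73), a carrier of H3-H4. Daxx (-0.82) fell. Without mouse 3368, 8 of 12 chaperones and 4 of 8 variant histones rose in training. In L libraries 9 of 12 rose, led by Chaf1b at 4.23. Of 8 variant histones, which are made outside S phase too, H2afx rose (2.28) and H2afy and H3f3a fell (-1.03 and -0.75) in training. In L libraries 4 rose, among them H2afx (1.98), Cenpa (1.21) and H2afz (1.10), and 2 fell, among them H3f3a (-1.64).

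Markers of several cell types moved in the same libraries. Mast cell and basophil markers rose in 6 of 6 cases in training, with summed levels of 9.45, 1874 and 6298 CPM at the lowest, median and highest of the last libraries, against 6.48, 7.39 and 9.57 at T0, and in 5 of 6 in L libraries. Stem and progenitor markers rose in 6 of 10 (1 fell) in training and 7 of 9 (1 fell) in L libraries. Erythroid markers rose in 8 of 10 in training (1207, 2953 and 16654 CPM, against 665, 990 and 1388), and 6 rose and 2 fell in L libraries. Their summed level in L libraries was nevertheless lower at the median. It was 174, 1031 and 4214 CPM, against 1062, 1895 and 9526 in the 10 validation CM mice at T0. All 6 B cell, 6 T cell and 6 NK cell markers fell in both cohorts. None of these marker genes was at 0 reads in either group of the 2 comparisons, and their part in the histone results was not tested.

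Control mice also changed with time, so the change in CM mice was set against the change of Ctrl mice from T0 to T6. In this comparison 37 of 48 members rose more and 2 rose less in CM mice (median 3.09), where 29.5% of all genes were called higher and 7.98% lower (median 0.61). Hist1h3b had a difference of 4.10 ± 0.75 (adjusted p = 0.00206). Hist1h1c, with 0.76 ± 0.32, did not pass (adjusted p = 0.068). Against the Ctrl change to T5, a comparison added after the data were seen, Hist1h1c passed (1.39, adjusted p = 0.00118). Against that change Hist1h2bc, one of the 2 members called lower, turned to 0.71. Both genes also rose in Ctrl mice from T0 to T10, and the difference from that change is not given here. The call of Hist1h1c thus depended on the Ctrl month used, and a rise beyond that of Ctrl mice is not settled for it. By type, 4 of 5 H1, 11 of 13 H2A, 8 of 11 H2B, 5 of 7 H3 and 9 of 12 H4 genes were called higher. The last libraries come from different months, and Ctrl T6 is 1 month.

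**Figure D3:**
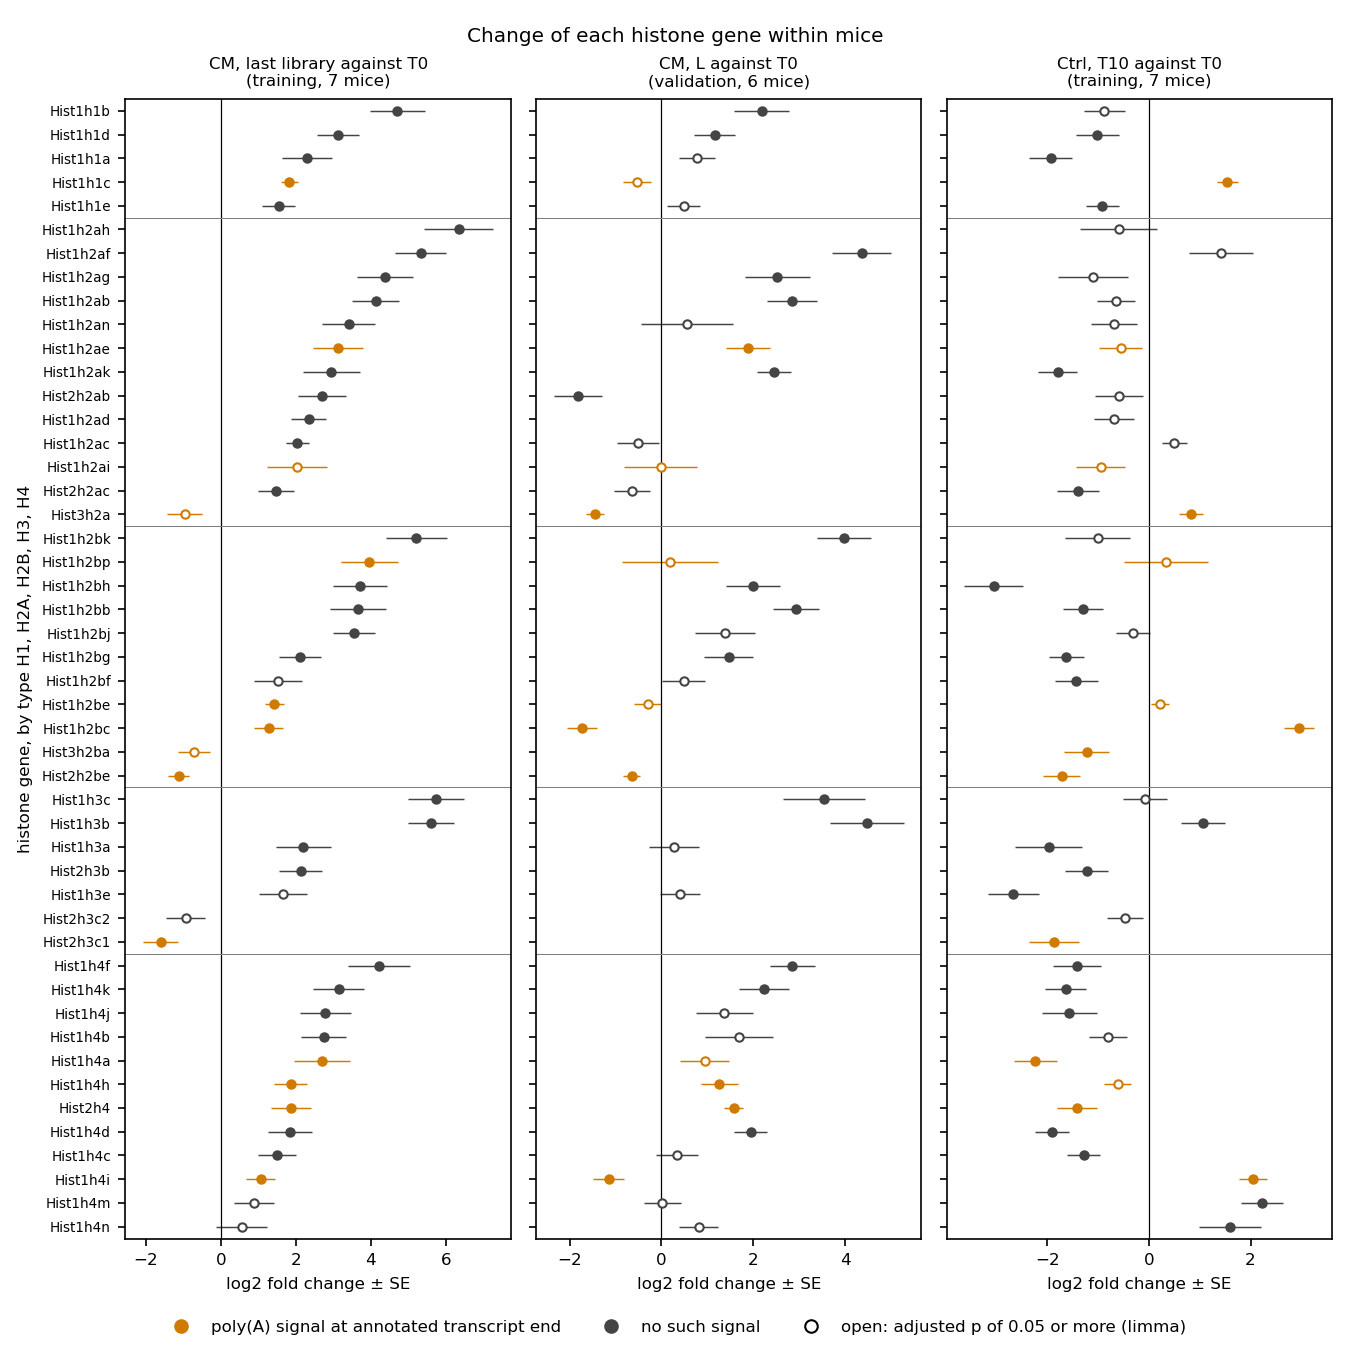
Log2 fold change ± SE of each member in CM last against T0 (training), CM L against T0 (validation) and Ctrl T10 against T0 (training); orange marks an annotated poly(A) signal at the transcript end and open symbols are members not called. Hist1h1c and Hist1h2bc lie above 0 in the training comparisons, and Hist1h2bc lies at -1.73 in L libraries.

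Members with an annotated poly(A) signal were compared with the other members as a description. The other members included Hist2h3c2, which had no annotated transcript, and the 6 with an annotated tail shorter than 30 bases. For these the lack of a signal says nothing about the gene. Hist1h1d and Hist1h2ac were also among them, with annotated transcripts that ran 3050 and 2010 bases past the stem-loop. In training last libraries 9 of 14 with the signal rose and 2 fell (median 1.63), and 29 of 34 without it rose and none fell (median 2.76). In L libraries 3 of 12 with the signal rose and 4 fell (median -0.16), and 15 of 30 without it rose and 1 fell (median 1.42). Both decreases in the training comparison, Hist2h2be and Hist2h3c1, and 4 of the 5 in L libraries were in members with the signal. In Ctrl mice at T10 the order was the other way: 4 of 14 with the signal rose and 5 fell (median -0.59), and 3 of 34 without it rose and 17 fell (median -1.02).

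Several H2A and H2B genes lie next to each other with a short stretch of DNA between them. Hist1h2ah and Hist1h2bk, 177 bases apart, had 6.35 and 5.22 in training last libraries, and Hist1h2ag and Hist1h2bj, 248 bases apart, 4.37 and 3.55. Hist1h2ae and Hist1h2bg had 3.12 and 2.11 with 179 bases between them. The pair Hist2h2ac and Hist2h2be, 191 bases apart, split: Hist2h2ac rose by 1.47 and Hist2h2be fell by 1.13. Hist1h2ac and Hist1h2bc, 239 bases apart, had 2.04 and 1.28 in training, -0.51 and -1.73 in L libraries, and 0.50 and 2.96 in Ctrl mice at T10.

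Month by month, CM mice were compared with Ctrl mice of the same cohort, with sex as a covariate. At T0, before induction, no member was called in training (0.0054% of all genes higher and 0% lower; 5 members with unadjusted p under 0.05) or in validation (0% and 0%; 1 member). At T1, 3 of 48 training members were higher and none lower (3.68% and 1.34% of all genes), and 6 of 42 validation members were higher and 1 lower (7.95% and 20.6%). With median-ratio scaling the validation count was 6 higher and none lower. At T2, 4 training members were higher and none lower (5.46% and 6.25%), and none of the validation members was called (0.147% and 0%).

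Hist1h3b was called in both cohorts 1 month after induction. In validation it had -0.19, 1.66 and 3.54 log2 CPM at the lowest, median and highest of the CM mice, against -1.52, -0.92 and -0.35 in Ctrl mice, and the groups did not overlap (2.59 ± 0.59, adjusted p = 0.00785). In training it had -0.98, 0.92 and 3.22 in CM mice, against -1.20, -1.05 and -0.79 in Ctrl mice (1.68 ± 0.46, adjusted p = 0.0468). The other training members called were Hist1h2ah (2.49 ± 0.63, adjusted p = 0.0318) and Hist1h3c (1.84 ± 0.43, adjusted p = 0.022). In validation Hist1h2af (2.15), Hist1h2bk (1.97), Hist1h2bc (0.99), Hist1h4i (0.51) and Hist1h1c (0.36) were higher as well. Hist1h1e was lower there, with 5.65, 6.15 and 6.88 in CM mice, against 6.45, 6.66 and 6.85 in Ctrl mice (-0.42 ± 0.14, adjusted p = 0.0329). The training calls lay near the threshold: that of Hist1h3b was lost in 10 of 14 fits that left out 1 mouse (adjusted p 0.0151 to 0.177), and those of Hist1h2ah and Hist1h3c in 7 and 3 of 14. The validation call of Hist1h3b held in all 16 such fits (adjusted p 0.00225 to 0.0244) but not with voom (adjusted p = 0.0622). In 1 fit over all months with mouse as block, every T1 call was lost (Hist1h3b adjusted p = 0.39 in training and 0.0528 in validation). Over all training libraries Hist1h2ah averaged -3.02 log2 CPM, below the 0.5 CPM its table required in 2 samples. Over all validation libraries Hist1h3b, Hist1h2af and Hist1h2bk averaged 0.95, -1.49 and 0.86 log2 CPM, below the 5 CPM required there. These calls may in part reflect that filter.

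At T2 another group of training members was called: Hist1h2bc, Hist1h4i, Hist1h1c and Hist3h2a. Hist3h2a had 3.19, 3.46 and 4.70 log2 CPM in CM mice, against 2.62, 2.81 and 3.17 in Ctrl mice, without overlap (0.76 ± 0.21, adjusted p = 0.0338). Hist1h2bc had 5.98, 6.17 and 8.05, against 5.03, 5.44 and 6.02 (1.18 ± 0.30, adjusted p = 0.0221), and Hist1h1c 7.69, 8.22 and 9.60, against 7.29, 7.63 and 8.01 (0.87 ± 0.25, adjusted p = 0.0359). All 4 calls were lost in the fit over all months with mouse as block (adjusted p = 0.124 for Hist1h2bc, 0.129 for Hist1h4i, 0.225 for Hist1h1c and 0.472 for Hist3h2a). When 1 mouse was left out, Hist1h2bc held in 14 of 14 fits, and Hist1h1c was lost in 8, Hist1h4i in 7 and Hist3h2a in 5.

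Markers of other cells moved in the same comparisons. Erythroid markers were higher in CM mice at the same time, in 9 of 10 at T1 and 6 of 10 at T2 in training and in 10 of 10 at T1 in validation. Globin took 2.66% of reads in CM and 0.694% in Ctrl mice at training T1 at the median, 2.07% and 0.785% at T2, and 4.47% and 1.21% at validation T1. Mast cell and basophil markers summed to 13 to 479 CPM in CM and 7.79 to 12.5 CPM in Ctrl mice at training T1, without overlap, and to 32.3 to 840 and 9.15 to 20.8 CPM at validation T1. NK cell markers were lower in 5 of 6 at training T1 (28.5 to 90.7 CPM in CM and 94.9 to 161 CPM in Ctrl mice) and in 6 of 6 at validation T1. At training T2, 6 of 6 T cell markers were higher and 5 of 6 B cell markers lower in CM mice. The part of these cells in the histone values was not tested.

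From T3 no member was called in the month by month comparisons. The share of all genes called was 0.313% higher and 0.319% lower at training T3, 0.0054% and 0% at T4, 0% and 0% at T5, and 0.0162% and 0% at T6; at validation T3 to T6 it was 0% in both directions. CM mice spread widely in these months. At training T6 the members' median difference was 2.13, with 44 of 48 positive and 28 with unadjusted p under 0.05; sums were 671, 1663 and 6402 CPM in 5 CM mice, against 614, 951 and 1332 in 7 Ctrl mice. Hist1h3b had -0.98, 3.73 and 6.49 log2 CPM in CM mice then, against -1.42, -0.46 and 0.32 in Ctrl mice (3.33, adjusted p = 0.287). At validation T2 and T3 the members' medians were 1.03 and 1.17, with 19 and 13 members with unadjusted p under 0.05, and the groups of Hist1h3b did not overlap in either month. When all months were fitted together with mouse as block, 35 members were called at training T6, 7 at validation T2 and 13 at validation T3, and none at T1 in either cohort or at training T2. The T3, T4 and T5 counts with unadjusted p under 0.05 were 1, 2 and 10 in training, and those for T4, T5 and T6 were 1, 0 and 1 in validation. Shares of all genes called in the fit over all months, or with unadjusted p under 0.05, are not given here. The counts of members from that fit or with unadjusted p therefore do not show a change particular to the members.

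Single mice reached high sums at different months. Mouse 3334 was at 849 CPM at T5, 5327 CPM at T6 and 2195 CPM at T6.5, with Mki67 at 5.22, 9.07 and 9.04 log2 CPM. Mouse 3341 had 639 CPM at T4, 1750 CPM at T5 and 6402 CPM at T6. In validation the L library had a lower sum than the last monthly library before it in 6 of 6 mice. Mouse 2684 had 3362 CPM in L and 5477 CPM at T4, mouse 2690 2562 CPM in L and 5218 CPM at T3, and mouse 2708 2025 CPM in L and 3511 CPM at T3. Mouse 2718 had 423 CPM in L and 1733 CPM at T5, mouse 2719 2507 CPM in L and 2830 CPM at T3, and mouse 2731 2033 CPM in L and 2262 CPM at T2. Mki67 was lower in L too in 5 of these 6 mice, and in mouse 2719 it was at 8.63 log2 CPM in L and 8.41 at T3. L libraries were unstranded and these monthly libraries stranded, so stage and preparation cannot be told apart in this order.

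Control mice of the training cohort were followed to T10, and their histone profile changed too. At T10, 7 of 48 members were higher and 22 lower than at the same mouse's T0, where 10.5% of all genes rose and 72.7% fell; the median was -0.93 over the members and -1.81 over all genes. With median-ratio scaling the median of all genes was -0.10 and that of the members 0.78, with 19 members higher and 2 lower. Globin took 4.21%, 31.2% and 38.5% of reads at T10 at the lowest, median and highest, against 0.473%, 1.02% and 1.78% at T0. Summed erythroid markers were at 3457, 15431 and 29432 CPM, against 449, 906 and 1510, and 10 of 10 rose. Their part in the result was not tested.

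Hist1h2bc rose most, with 6.70, 8.29 and 8.64 log2 CPM in Ctrl mice at T10, against 4.64, 5.01 and 5.86 at T0 (2.96 ± 0.30, adjusted p = 0.000448, 7 of 7 mice). Hist1h4i had 3.90, 5.19 and 5.72, against 2.57, 3.16 and 3.39 (2.05 ± 0.28, adjusted p = 0.000973), and Hist1h1c 8.59, 9.48 and 9.83, against 7.56, 7.84 and 8.12 (1.54 ± 0.21, adjusted p = 0.000995). Hist1h4m rose by 2.23 ± 0.41, Hist1h4n by 1.59 ± 0.61, Hist1h3b by 1.06 ± 0.43 and Hist3h2a by 0.83 ± 0.23. The largest decreases were those of Hist1h2bh (-3.06 ± 0.58), Hist1h3e (-2.67 ± 0.50), Hist1h4a (-2.24 ± 0.42), Hist1h3a (-1.97) and Hist1h1a (-1.94). Under median-ratio scaling Hist1h4a (-0.53, adjusted p = 0.166), Hist1h3a (-0.25, adjusted p = 0.683) and Hist1h1a (-0.23, adjusted p = 0.48) were not called, and Hist1h1e was at 0.79 in place of -0.92. Mitosis genes split into 11 higher and 5 lower, and of 20 S phase genes 2 were higher and 15 lower.

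Between T1 and T2 the histone genes of Ctrl mice fell in both cohorts. In training 14 of 48 fell and none rose (2.54% of all genes fell and 2.9% rose), with a median of -0.60 over the members and -0.01 over all genes. H4 genes were called in 7 of 12 cases (median -0.91), H1 in 3 of 5, H2B in 2 of 11, H2A in 1 of 13 and H3 in 1 of 7. Without Hist1h1c and Hist1h2bc the sum was 152 to 241 CPM with a median of 200 at T2, against 293 to 387 CPM with a median of 352 at T1. It was back at a median of 377 CPM at T3 (319 to 450). CM mice had medians of 349, 207 and 330 CPM for the same sum at T1, T2 and T3. In validation 28 of 42 fell and 1 rose (23.3% of all genes fell and 4.31% rose), with a median of -0.86 over the members and -0.19 over all genes; 21 fell with median-ratio scaling.

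Hist1h4b had -0.78, -0.11 and 0.57 log2 CPM in training Ctrl mice at T2, against 1.74, 2.09 and 2.28 at T1 (-2.16 ± 0.19, adjusted p = 0.00104). Hist1h1e had 2.86, 3.32 and 3.93, against 4.98, 5.28 and 5.45 (-1.84 ± 0.13, adjusted p = 0.000357), and Hist2h3b 0.15, 0.63 and 1.04, against 1.49, 2.24 and 2.81 (-1.53 ± 0.23, adjusted p = 0.00714). In these genes no T2 library reached any T1 library. Hist1h1d fell by 1.67 and Hist1h4j by 1.46 on the log2 scale, and Hist1h2bc, at 0.03, did not pass (adjusted p = 0.953). In validation the largest decreases were in Hist1h4n (-3.86 ± 0.30), Hist1h2ai (-3.57 ± 0.23), Hist1h2ak (-3.29), Hist1h4m (-3.21 ± 0.19) and Hist1h2ag (-2.90), and Hist2h2ab rose (0.53 ± 0.16). Hist1h1e fell there by 1.43 ± 0.11 (adjusted p = 0.000148).

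The cell cycle lists are given beside the dip; the difference from them was not tested. In training S phase genes had a median of 0.08 (1 rose, 1 fell), mitosis genes 0.13 and processing genes -0.08, with none called in the last 2 lists. In validation the medians were -0.26 (1 rose, 4 fell) and 0.35 (3 rose, 2 fell) for S phase and mitosis. In training Ctrl mice 6 of 6 T cell markers fell, with sums of 152 to 235 CPM at T2, against 273 to 504 CPM at T1. In training CM mice, whose histone sum dipped too, T cell markers summed to medians of 501 CPM at T1 and 494 CPM at T2. In validation Ctrl mice none of the T cell markers was called (median 0.17). The RNA 7SK was at 12281 to 20129 CPM in training Ctrl mice at T2, with a median of 14993, against 9673 to 11950 CPM with a median of 10979 at T1. In validation T1 was unstranded and T2 stranded, so month, sequencing run and preparation cannot be told apart; the part of cell makeup and batch in the training dip was not tested.

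**Figure D4:**
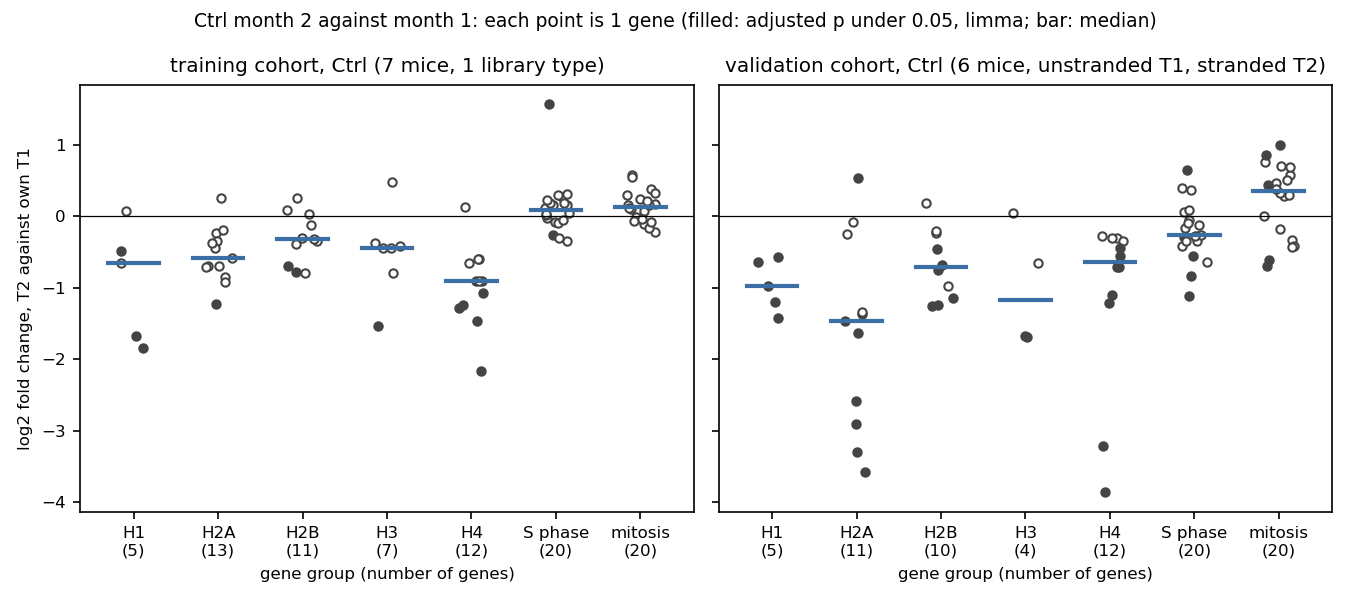
Log2 fold change of Ctrl T2 against the same mouse's T1 for each member by type (H1, H2A, H2B, H3, H4) and for S phase and mitosis genes, training left and validation right. Training H4 genes have a median of -0.91, against 0.08 for S phase and 0.13 for mitosis genes.

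Before that, from T0 to T1, no member was called in training Ctrl mice (0% of all genes in either direction; median 0.12, 10 members with unadjusted p under 0.05). In validation Ctrl mice 13 of 42 members rose and 5 fell (25.7% and 7.58% of all genes), with a median of 0.05. Validation T0 and T1 libraries came from different sequencing runs, so month and run cannot be told apart there. Of the 12 H4 genes 9 rose, Hist1h4b by 1.43 ± 0.18, Hist1h4j by 0.99 and Hist1h4d by 0.89, and Hist1h2af (2.10) and Hist1h2ai (0.75) rose too. Hist1h1b (-0.96), Hist1h1a (-0.69), Hist1h2bh (-0.67), Hist3h2a (-0.48) and Hist2h2ac (-0.34) fell. With median-ratio scaling 9 rose and 7 fell. Mitosis genes fell in 8 of 20 cases and rose in 1.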

How the data were processed

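Blood RNA was sequenced in 132 training and 116 validation libraries. Per the submitters' processing notes, reads were handled with STAR, featureCounts of Subread and edgeR on GRCm38, with versions not given in the sources used here. Deposited by the authors were 2 tables of log2 CPM values. Whole reads were recovered from them (prior of 0.25 reads; 100% of values whole within 0.01 reads), at 16 to 36.3 and 8.68 to 34.4 M reads (M for 1000000) per library, and per the table names genes were kept at 0.5 CPM (training) or 5 CPM (validation) in 2 samples. Counting error alone is small at this depth for all but the lowest genes, and p-values measure the spread between mice.

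Symbols were found for 16266 of 18508 and 12612 of 13607 IDs in RefSeq tables, and transcripts came from GENCODE vM1. Comparisons across all genes used limma 3.58.1 in R 4.3.3 with trend on log2 CPM, Benjamini-Hochberg adjustment over the whole table and a threshold of 0.05. Fits between arms had sex as a covariate, and fits within an arm had the mouse as a replicate block, since the same animals were sampled repeatedly. Exact permutation tests and descriptions used Python 3.11.15, numpy 2.4.6, pandas 2.3.3 and scipy 1.17.1, and figures matplotlib 3.10.9. The limma fits were tested on simulated data. Reads of near-identical copies cannot be assigned with certainty, and levels are not per length, which limits the share of the sum held by single genes and the choice of the 2 highest members per type.

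Alternatives were median-ratio scaling, a prior of 2 reads, a filter at a mean log2 CPM of 1, voom on recovered reads, no sex covariate, other block structures, 1 fit over all months and leaving out each mouse; Ctrl changes to T5 and T7, the test between cohorts and its repeat, with that of the other lists, without mouse 3368 or 2718 were added after seeing the data. Named in every comparison were the 2 members of each histone type with the highest mean log2 CPM in training, and up to 5 called members with the largest change in each direction. Other genes were named from lists, at most 4 per list beside Slbp, Npat, Pcna and Mki67. The members and lists were chosen with earlier results of these data known. Weekly libraries were compared in no test because only 3 CM and 2 Ctrl mice have them, but they were among the libraries of the validation fit over all months.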

Additional observations from a re-analysis of the deposited data

Results flagged for a closer look

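In 4 of 34 groups of 4 to 10 libraries, 1 library lay far from the others in its summed CPM of the members. The rate of about 1 in 20 such groups by chance assumes independent groups and a normal spread. The same mice recur here and some CM sums lie far above the rest, so 4 of 34 cannot be set against that rate. Mouse 3341 had 1750 CPM at training T5, where the next CM library had 900 CPM. Mouse 2684 had 5477 CPM at validation T4 (next 970 CPM), and mouse 2718 had 1733 CPM at validation T5 (next 767 CPM). Mouse 2690 was low at validation T0, with 804 CPM (next 1246 CPM), and globin took 12.2% of its reads there.

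In 4 members the change to the late library differed between training and validation CM mice, by exact permutation tests: Hist1h2bc by 3.01, Hist1h1c by 2.36, Hist2h2ac by 2.11 and Hist1h2be by 1.73 on the log2 scale. Without mouse 2718 the difference of Hist2h2ac was 1.62 (exact permutation, adjusted p = 0.0909), and the mean change of Hist1h2be in validation was 0.02 in place of -0.30.

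The weekly libraries of the validation cohort entered its fit over all months but were compared in no test. In them 6 Ctrl libraries from 2 mice had at most 832 CPM, and 7 of 9 CM libraries from 3 mice were above that. Mouse 3200 had 1234 CPM at week 10, 3233 CPM at week 14 and 1673 CPM at week 18. Mouse 3130 had 1869 CPM at week 20 and 1873 CPM at week 24, and 486 CPM at week 25. Mouse 3131 had 2735 CPM at week 24 and 3688 CPM at week 28. No test was made of these libraries.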

How the results depend on the processing

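Of 382 alternatives for the counts of called members, 342 stayed within 1.5 times the main count, among them all alternatives for CM last libraries and for L libraries. Many of the 342 are counts of 0 against a main count of 0, so this total says little about small counts. With 1 mouse left out, the count moved further in 7 fits at training T1, 6 at training T2 and 9 at validation T1. Among other alternatives that moved further, the training T1 count of 3 became 5 with median-ratio scaling, 5 with voom, 5 without the sex covariate and 1 with the filter at a mean of 1. The validation T1 count of 7 became 4 with voom, and the Ctrl T10 count of 29 became 17 with that filter. In 1 fit over all months with mouse as replicate block, the counts were 0 at training T1, 0 at training T2 (main 4) and 0 at validation T1, but 35 at training T6, 7 at validation T2 and 13 at validation T3 (main 0 each). With library group added to the block they were 0 at training T1, 0 at training T2 and 29 at training T6. Shares of all genes called in these fits over all months are not set beside these counts. Without the replicate block the counts were 42 for CM last libraries, 21 for L, 34 for Ctrl T10 and 20 for training Ctrl T2 against T1. The causes were not tested.

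Leaving out 1 mouse at a time gave 34 to 45 for CM last libraries (45 without mouse 3368), 19 to 33 for L libraries (33 without mouse 2718), 22 to 34 for Ctrl T10 and 31 to 41 for CM change against Ctrl change. It gave 0 to 7 at training T1, 1 to 5 at training T2, 2 to 14 at validation T1, 0 to 1 at validation T2 and 9 to 17 for training Ctrl T2 against T1. Against the Ctrl change to T5 and T7, 28 and 32 members were called.

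For named members 5 values changed sign: at Ctrl T10 with median-ratio scaling Hist1h1e (0.79), Hist1h4c (0.42), Hist2h2ac (0.31) and Hist2h3b (0.48), and Hist1h2bc (0.71) against the Ctrl change to T5. Depth limits members with few reads, such as Hist1h2ah at T0.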

Other observations

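Mouse 2700, labelled CM but with 0 to 19 reads of the MHY11 row after T0, had sums of 1292, 1168, 849, 847, 697, 703 and 870 CPM from T0 to T6. Its Mki67 stayed between 4.45 and 4.85 log2 CPM and its Kit between 1.54 and 2.56. Ctrl mice of the same cohort had median sums of 1247, 1093, 763, 782, 808, 820 and 964 CPM in these months.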
